A study of Mus musculus with 24 samples.

Results

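The sites described here are 1000 stretches of RNA in mouse spinal cord that carried an m6A peak on days 3, 7 and 14 after nerve injury and no peak in sham-operated mice. They were selected on fold enrichment and p from the 22097 day 3 peaks with a fold enrichment over input of at least 2 and a log10 p of at most -5 in the authors' list, here called strict peaks. A site shared at least 1 exonic base on the same strand with a strict peak of the day 7 list and with one of the day 14 list, and no base with any row of the sham list. The choice used the peak values themselves, so those values are given below as a description, without a test.

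The study compared mice with spared nerve injury (SNI), in which the common peroneal and tibial nerves were ligated and cut, with sham mice whose sciatic nerve and branches were only exposed. Cords were taken on days 3, 7 and 14 after injury, and the sham cords carry the label day 3 only, so time after surgery and injury cannot be told apart on days 7 and 14. Each of the 4 groups had 3 libraries of poly(A) RNA fragments pulled down with an anti-m6A antibody (MeRIP-seq) and 3 input libraries, 24 in all. The labels give no strain, sex or age of the mice. They also do not say if each library is a mouse of its own, and p-values may therefore reflect technical spread alone.

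N6-methyladenosine (m6A) is the commonest internal modification of messenger RNA. It is written by a complex of the catalytic Mettl3, its RNA-binding partner Mettl14 and Wtap, removed by Fto and Alkbh5, and read by proteins of the YTH family, which act on RNA decay and translation. Sites lie mostly near stop codons and in 3′ UTRs, often within a GGAC core. Antibodies against m6A also bind m6Am, a dimethylated adenosine beside the cap, so a peak over a transcript's first base can hold either mark. In the spinal cord, m6A has been studied for its part in the response of dorsal horn cells to nerve injury.

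Of the 1000 sites, 68 (6.8%) covered a transcript start of their gene in RefSeq (GRCm38.p6). The share was 7.72% among strict day 3 peaks found in all 4 groups. It was 12.3% among those without a sham row that were not strict on both other days. The first transcribed bases of 8 of the 68 sites are shown because they are the only parts of the sites whose sequence was at hand. The first 5 have the largest smallest fold enrichment over the 3 days among these sites. The last 3, Nid1, Pcyt1b and Fam98b, are the ones with GGAC in their first 30 bases. Each runs 5′ to 3′ on the gene's strand, and capitals mark the first transcribed base and any GGAC.
Hectd4: Aagatggcgtcttactgacagttggctgcg
Cbfb: Gagaggaagtggcggccgcagccgggggag
Mylip: Agtagggctgtcggagcggcgcggccgtgt
Unc5b: Attgtggccggcggcagggcgggcgagggc
Fam193b: Ggggcgccgggcgccgccatattggctgtt
Nid1: GggaggtgaggagGGACtgcggaggggcgt
Pcyt1b: AgccatcagagcGGACagagcacagcaact
Fam98b: AgtgacgaacagctttGGACcaagcgacca
Hectd4, a large ubiquitin ligase, starts at chr5:121220219-121220248 (plus strand) and Cbfb, the partner subunit of Runx factors, at chr8:105170674-105170703 (plus strand). Mylip, a ubiquitin ligase of lipoprotein receptors, starts at chr13:45389742-45389771 (plus strand) and Unc5b, a netrin receptor, at chr10:60831552-60831581 (minus strand). Fam193b starts at chr13:55571091-55571120 (minus strand) and Nid1, a basement membrane glycoprotein, at chr13:13437602-13437631 (plus strand). Pcyt1b, an enzyme of phosphatidylcholine synthesis, starts at chrX:93654863-93654892 (plus strand) and Fam98b at chr2:117249739-117249768 (plus strand).

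Among the 68 starts covered by sites, 24 (35.3%) began with A, and 9 (13.2%) held GGAC on the sense strand in the first 50 bases, 2 of them as GGACT. Among 1252 strict day 3 peaks found in all 4 groups that covered a start, 29.9% began with A and 19.2% held GGAC. The other day 3 peaks without a sham row covered a start in 304 cases, with 34.2% and 22%. Of the 32851 RefSeq starts in the table, 34.4% began with A and 18.9% held GGAC. GGACT is counted within GGAC in each of these shares. These are counts of letters, not of methylated bases.

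The absence of a peak was much commoner in sham than in 2 of the injured groups. With the same rule and each group in turn as the one without a peak, 1000 day 3 peaks lacked a sham row, 337 lacked a day 7 row (strict on day 3, day 14 and in sham), 34 lacked a day 14 row, and 43 day 7 peaks lacked a day 3 row. The count for sham depended little on which injured list was counted, at 1213 day 7 peaks and 985 day 14 peaks. Without a day 7 row there were also 339 day 14 peaks and 523 sham peaks. The sham and day 7 lists were also the shortest, with 32669 and 34136 rows, against 40195 on day 3 and 38655 on day 14. In exonic length they covered 12898 and 14767 kb, against 20017 and 17988 kb.

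**Figure D1:**
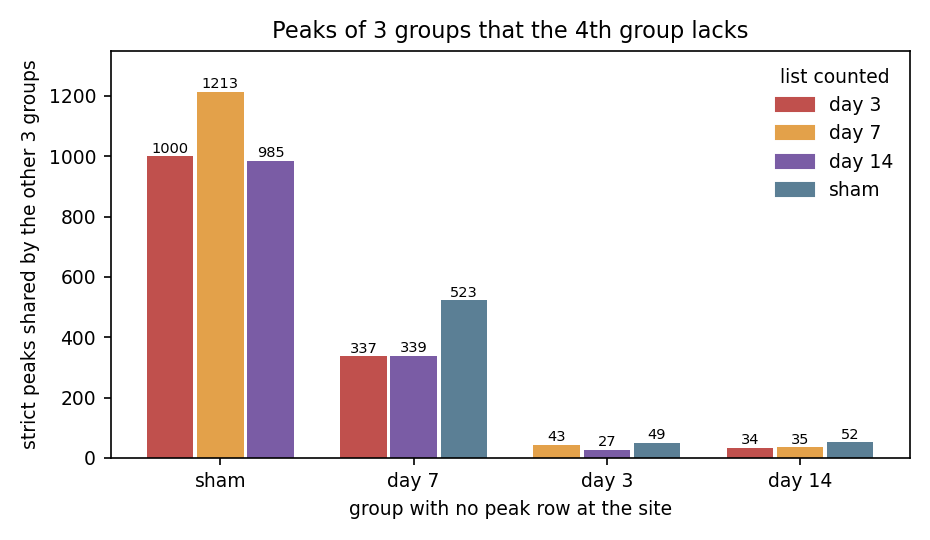
Number of strict peaks (y axis) that 3 groups shared and the group named on the x axis lacked, with bars coloured by the list whose peaks were counted. Sham stands highest at 985 to 1213 peaks, day 7 follows at 337 to 523, and days 3 and 14 lie between 27 and 52.

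Sham and day 7 also held the input libraries that stood apart. Across 15564 genes, day 7 library 3 and sham library 3 correlated with the other 10 at 0.925 to 0.942 on the log2(FPKM + 0.5) scale and with each other at 0.983. For the 54 genes at 200 FPKM or more in every library, the ratio of 2 libraries spread by 32.4 to 38.9% against these, by 1.21 to 1.68% between the remaining libraries of a group and by 4.35 to 8.95% between groups. FPKM summed to 180340 to 201358 per library, and depth is unknown because read counts were not used here. Among the 886 host genes (the genes a site lies in) that were tested, these 2 libraries were the 2 highest of 12 for 354 (40%) and the 2 lowest for 301 (34%). Over all 15564 tested genes the shares were 29.6% and 33.5%. Whether the pulled-down libraries with these numbers also stood apart, and its part in the missing sham rows, was not tested, since the peak lists hold 1 value per group.

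Of the 22056 strict day 3 peaks that could be given a strand, 3466 had no sham row. The 1000 sites are those of them that were strict on both other days, 1422 were strict on day 14 but not on day 7, 181 on day 7 but not on day 14, and 863 on neither. Of those strict on day 14, 1101 shared no base with any day 7 row either. Peaks with a sham row were mostly found everywhere: 16227 were strict on all 3 injured days.

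The sites' enrichment was modest. The fold enrichment had a median of 3.31 on day 3 (quartiles 2.67 and 4.42), 3.13 on day 7 (2.54 and 4.47) and 3.52 on day 14 (2.76 and 4.71), and the median log10 p was -17.5, -16.6 and -20.1. Day 3 peaks found in all 4 groups had a median fold of 5.91 and a median log10 p of -59.6. Day 3 peaks without a sham row that were not strict on both other days had 2.9 and -9.65. The sites thus lay between these classes. Their width did so too, with a median of 301 exonic bases, against 630 in the shared peaks and 241 in the other class. The day 14 peak covered a median of 100% of a site's bases and the day 7 peak 70%. A fold enrichment of at least 3 on all 3 days was reached by 395 sites.

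**Figure D2:**
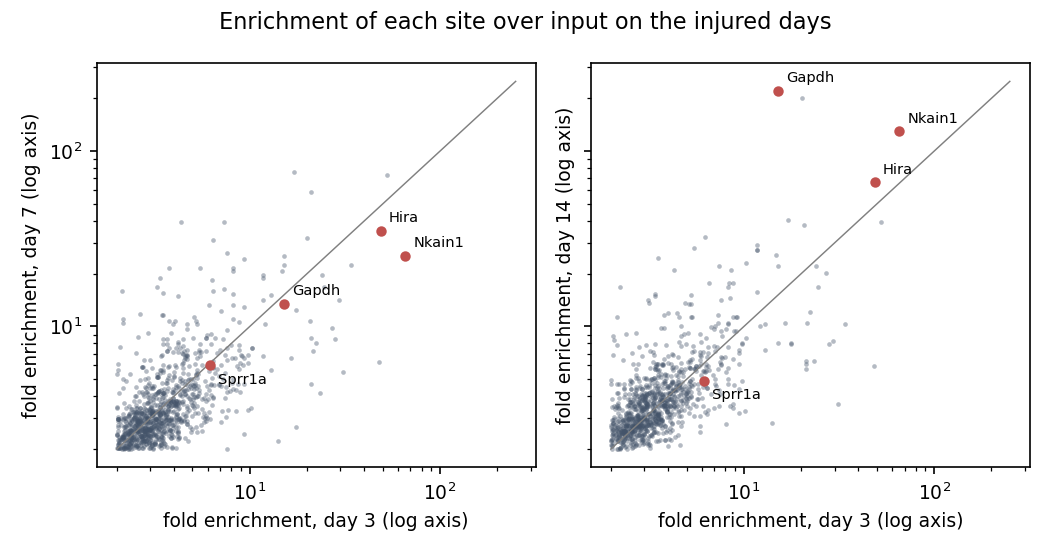
Fold enrichment over input of each of the 1000 sites on day 3 (x axis, log) against day 7 (left) and day 14 (right, both log), with a line of equal values and 4 named host genes in red. Most points lie between 2 and 5 on every day, and Gapdh stands at 15.1 on day 3, 13.5 on day 7 and 221 on day 14.

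The sites lay mainly in 3′ UTRs. The authors' annotation placed 615 (61.5%) in 3′ UTRs, 251 (25.1%) in other exons and 134 (13.4%) in 5′ UTRs. Peaks of all 4 groups had nearly the same make-up, at 64.6, 22.2 and 13.2%. The other day 3 peaks without a sham row held more 5′ UTR peaks, at 24.5%, and fewer in 3′ UTRs, at 54.7%. A single exonic block made up 793 sites (79.3%), against 58.1% of the peaks of all 4 groups and 77.3% of the other peaks without a sham row. Sites were found on every chromosome but Y, with 94 on chromosome 2 and 2 on the mitochondrial genome. For 251 sites (25.1%) the gene that names the peak differed from the nearest annotated gene. Genes overlap or abut there, and reads of 1 cannot always be told from those of the other. The same held for 25.1% of the peaks of all 4 groups and 23.8% of the other peaks without a sham row.

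**Figure D3:**
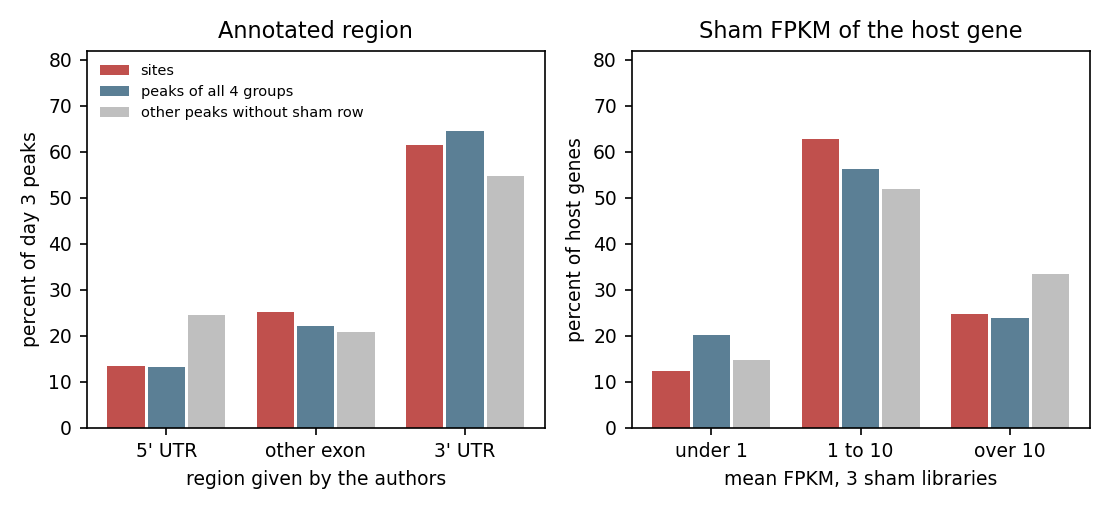
Share of day 3 peaks by annotated region (left) and share of their host genes by mean sham FPKM (right), for the 1000 sites, the 16227 peaks of all 4 groups and the 2466 other peaks without a sham row. The sites match the shared peaks closely by region, and 62.9% of their host genes lie between 1 and 10 FPKM.

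A new site was usually 1 more peak in a gene that had others in sham, and so were other day 3 peaks without a sham row. The 1000 sites lay in 962 genes, 927 of which held 1 site and 35 more than 1. For 702 sites (70.2%) the same gene had a sham peak elsewhere, at a median distance of 1586 genomic bases and a smallest of 28. The share was nearly the same, 67.8%, among the day 3 peaks without a sham row that were not strict on both other days. A sham peak lay within 100 bases of 49 sites and within 500 bases of 187. The other 298 sites lay in 291 genes without any sham peak. Among them were those in Sprr1a, S100a11 and Mettl14.

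Among genes without a predicted name, the sites with the highest fold enrichment on their weakest day were in genes of varied roles. Hira, the chaperone of histone H3.3, had a 5′ UTR site (chr16:18877186-18877485, plus strand) with folds of 48.7, 35.2 and 66.8 on days 3, 7 and 14. Nkain1, a partner of the sodium pump, had a 3′ UTR site (chr4:130531602-130531899, minus strand) with 65.7, 25.4 and 130, and a host level of 17.9 ± 6.64 FPKM in sham (mean ± SD, n = 3 libraries). Each gene had 1 sham peak, 91957 bases away in Hira and 26077 in Nkain1.

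Hectd4 (chr5:121220219-121220459, plus strand) and Cbfb (chr8:105170674-105170974, plus strand), whose first bases are shown above, had folds of 24.6, 16.9 and 16.7, and of 14.7, 20.7 and 25.5. Their sites began exactly at the RefSeq start. Hectd4 had a sham peak 118 bases away, and Cbfb had none. Nudt7, a peroxisomal coenzyme A hydrolase (3′ UTR, chr8:114153155-114153544, plus strand), had folds of 24, 19.7 and 22 and a sham peak 328 bases away.

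Gapdh, the glycolytic enzyme often used as a reference gene, had a 3′ UTR site (chr6:125161805-125162104, minus strand) with a log10 p of -4290, -2420 and -8240 on days 3, 7 and 14. Gapdh has many near-identical pseudogene copies that can split its reads, so its level of 21.2 ± 0.962 FPKM in sham and its folds are uncertain. Fam205a2 had folds of 20.1 and 31.9 on days 3 and 7, and its highest on day 14. The remaining 3 sites lay in genes with a mean of 0.533 FPKM or less in every group: Ttc36 (folds of 11.7, 19.7 and 29), Gpr182, a receptor of lymphatic and vascular endothelium (11.7, 18.8 and 27.2), and Arhgef33 (11.7, 14.1 and 27.2). The Ttc36 site lies where the annotation names Tmem25. Arhgef33 had a sham peak only 29 bases away and Gpr182 had one 1048 bases away, while Ttc36 had none. The number of reads behind the folds of these 3 sites is unknown.

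Most host genes were expressed in sham cord. Over the 955 host genes with a row in the gene table, the median sham level was 4.66 FPKM (quartiles 2.29 and 9.91). Of them 118 (12.4%) were below 1 FPKM, 601 (62.9%) between 1 and 10, and 236 (24.7%) above 10. Genes of peaks found in all 4 groups had a median of 4.1 FPKM, with 20.1% below 1 and 23.8% above 10. Genes of the other peaks without a sham row had a median of 5.89, with 14.7% below 1. In bulk tissue, fewer cells of a type and less RNA per cell cannot be told apart.

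The sites in the most abundant host genes with no predicted name were mostly weak. Aplp1, an amyloid precursor-like protein (371.4 FPKM in sham), Trf, the iron carrier transferrin (328.8), and Spock2, a brain proteoglycan (170.6), had smallest folds of 2.59, 2.07 and 2.45.

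Gfap, the astrocyte filament protein, and Slc1a2, the astrocytic glutamate transporter, were at 326.2 ± 26 and 154.5 ± 65.6 FPKM in sham. Their sites had day 3 folds of 2.53 and 3. The Gfap site lies where the annotation names the neighbouring Eftud2. Malat1, a long nuclear RNA, had folds of 4.12, 3.78 and 5.23 at a sham level of 149.7 ± 83.7 FPKM. Its library 3 stood at 246.4 FPKM in sham and 261.2 on day 7, against 99.8 and 102.9 in the other sham libraries.

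Mt2, a zinc-binding metallothionein, had a site with folds of 4.06, 3.55 and 4.17 over 3 exonic blocks (chr8:94172752-94173568, plus strand) and no sham peak in the gene, at 200.7 ± 4.82 FPKM in sham. The site spans most of the gene as listed (chr8:94172664-94173568). Stip1, a co-chaperone of Hsp70 and Hsp90 (125.6 FPKM in sham), and Ywhab, a 14-3-3 adaptor (111.5), had day 3 folds of 2.69 and 4.69 and no sham peak in the gene either. Aplp1 and Trf had no sham peak as well.

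Also leaving out predicted names, the 5 host genes with the lowest sham levels among those reaching a mean of 1 FPKM after injury were Nnt, Procr, Fbl-ps2, Sprr1a and Pcdha11. A gene identifier named Nnt, a mitochondrial transhydrogenase, was listed at 0 in all sham and day 7 libraries, at 1.38, 0 and 1.13 FPKM on day 3 and at 2.93, 1.36 and 1.57 on day 14. The day 7 list held a strict peak there all the same, with a fold of 3.05. The table has another identifier for Nnt that can share its reads and is a host too. Without day 7 library 3 and sham library 3, this other identifier fell on days 3 and 14 (log2 of -1.21 and -1.6). In the same fit the identifier above was at 1.2 (limma, adjusted p = 0.219) and 2.24. On day 7 they were at -0.0564 and 0. Whether reads moved between them was not tested. Procr, the endothelial protein C receptor, was at 0.717, 0.641 and 0.259 FPKM in sham, and at 1.09, 0.986 and 1.33 on day 3. Its day 3 libraries lay above all sham libraries, but the log2 fold change of 0.68 ± 0.18 (SE) did not pass (limma, adjusted p = 0.477). Fbl-ps2, a pseudogene, and Pcdha11, a clustered protocadherin, were at 0.712 and 0.806 FPKM in sham and at 1.07 and 1.39 on day 3. In both genes the sham and day 3 libraries overlapped, and neither passed on day 3 (limma, adjusted p = 0.695 for each).

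Sprr1a is a small proline-rich protein induced in axotomised neurons. Its site (chr3:92483952-92484310, minus strand, 3′ UTR) had folds of 6.17, 6.03 and 4.92 and a log10 p of -180, -411 and -334 on days 3, 7 and 14. Its RNA was at 0.416, 0.158 and 1.57 FPKM in the sham libraries. It was at 16, 14.9 and 14.8 FPKM on day 3, at 31.5, 30.1 and 37.9 on day 7, and at 36.3, 32.6 and 38.4 on day 14. All injured libraries lay above all sham libraries. The missing sham peak thus falls on a gene with a mean of 0.716 FPKM in sham.

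S100a11, a calcium-binding S100 protein, had a site spanning chr3:93520488-93526287 (plus strand, 511 exonic bases) with folds of 3.17, 2.2 and 4.16. That span, in 3 exonic blocks, is the whole gene as listed, so it does not place the mark within the gene. The site also covers a RefSeq start, though the annotation names the 3′ UTR. S100a11 RNA was at 4.4, 4.57 and 4.77 FPKM in sham, at 7.83, 8.36 and 8.43 on day 3, at 13, 12.2 and 12.2 on day 7, and at 11.7, 10.3 and 9.93 on day 14. The injured libraries again lay above all sham libraries. Here sham held RNA in the range of the median host gene.

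Lists of genes with a role in injury, pain and m6A held 0 to 3 hosts each. Of all 13359 genes with a strict day 3 peak, 962 (7.2%) were hosts. Axon injury and regeneration had 1 host, Sprr1a, among 22 genes with a strict day 3 peak (4.55%), and microglia and complement had 1 of 12 (8.33%), C4b. C4b, a complement component that tags synapses and debris, had folds of 2.67, 3.3 and 3.01 and stood at 8.6, 8.7 and 5.17 FPKM in sham and 10.1, 10.4 and 9.3 on day 3. Its lowest values in sham and on day 7 (5.54 FPKM) were both in library 3.

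Of 9 m6A writers, all with a strict day 3 peak, 1 was a host (11.1%): Mettl14. Its 3′ UTR site (chr3:123369314-123369613, minus strand) had folds of 2.8, 2.81 and 2.71, and its RNA was at 2.87, 2.91 and 4.11 FPKM in sham and 2.77, 2.82 and 2.81 on day 3. Sham libraries 1 and 2 lay just above the day 3 libraries and library 3 well above them. None of the 9 erasers and readers with a strict day 3 peak was a host (0 of 9).

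Ion channels and receptors of pain signalling had 3 hosts among 33 genes (9.09%), among them the NMDA receptor subunit Grin2b and the metabotropic glutamate receptor Grm5. The Grin2b site (3′ UTR, chr6:135713233-135713593, minus strand) had folds of 15.1, 25.4 and 8.01, and lies where the annotation names a pseudogene, Dynlt1-ps1. Grm5 (2.52, 2.06 and 2.6) lay close to the threshold of 2. Arc, an activity-induced synaptic protein, was the host among 11 immediate early genes (9.09%), with folds of 3.89, 2.05 and 2.51. Axon guidance had 2 of 20 (10%), the semaphorin receptor Plxna1 (3.06, 2.23 and 3.47) and the Robo ligand Slit2 (4.23, 3 and 4.83). The Slit2 site lies where the annotation names Gm42535.

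Chromatin regulators had 6 hosts among 26 genes with a strict day 3 peak (23.1%). These were the histone H3 lysine 4 methyltransferases Kmt2a, Kmt2c and Kmt2d, the lysine 36 methyltransferase Setd2, the corepressor Ncor1 and the DNA demethylating enzyme Tet2. Kmt2c held 3 sites, annotated as other exons, with smallest folds of 2.17, 2.99 and 3.28. The Kmt2a site lies where the annotation names the neighbouring Ttc36. A Kmt2d site lies where it names Prkag1, and a Kmt2c site where it names Gm20432. The levels of the 6 host genes were 2.42 to 11.1 FPKM in sham, and each gene had sham peaks elsewhere, from 2 in Tet2 to 9 in Kmt2a and Kmt2d. The chromatin genes were listed with earlier results of the same data known, so the share is no test. Zinc finger genes of the Zfp family were 26 hosts (2.7%), against 3.06% of the genes of peaks found in all 4 groups.

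The RNA of nearly all host genes was not shown to change. In limma fits of log2(FPKM + 0.5), 2 of 886 tested host genes (0.226%) passed on day 3, where 0.0578% of all 15564 genes passed, and both, Sprr1a and S100a11, rose. The same 2 passed on day 7, where 0.103% of all genes passed, on day 14 (0.0514%) and in the mean of the injured days (0.129%). An unadjusted p below 0.05 was reached by 37, 22 and 35 host genes on days 3, 7 and 14 (4.18, 2.48 and 3.95%), against 6.24, 2.53 and 4.92% of all genes. With library number as a block, 9 genes passed on day 7 in place of 16, and Sprr1a and S100a11 were among them. The median log2 fold change of the host genes was -0.015, -0.002 and -0.002 on the 3 days, against 0.028, 0.006 and 0.031 over all genes.

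Sprr1a had log2 fold changes of 3.87 ± 0.32 (SE), 4.96 ± 0.32 and 5.07 ± 0.32 on days 3, 7 and 14 (limma, adjusted p = 0.00178, 0.000106 and 8.48e-05). S100a11 had 0.78 ± 0.08, 1.35 ± 0.08 and 1.13 ± 0.08 (limma, adjusted p = 0.00586, 4.08e-05 and 0.000116). These scales understate the change of a gene near 0 such as Sprr1a. When only the 2 groups compared were fitted, the limma adjusted p on days 3 and 7 was 0.165 and 0.0671 for Sprr1a and 0.165 and 0.0648 for S100a11. Without day 3 library 3, S100a11 had adjusted p = 0.0554 on day 3 in limma. When the near-identical libraries were averaged into 6 samples, 0 host genes passed in limma on any day, and 4, 4 and 5 had an unadjusted p below 0.05 on days 3, 7 and 14, where 51, 72 and 47 of all genes did.

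Markers of some cells moved between the groups beside these genes. The summed level of 6 microglial markers was 60.2 to 66.4 FPKM in sham and 76.2 to 105.4 in injured libraries, and that of 5 erythroid genes 188.9 to 317.5 and 355.3 to 693.4. In every other set of cell markers the sham and injured ranges overlapped, those of neurons, astrocytes and oligodendrocytes among them. Markers of sensory ganglion neurons were at 22.5 to 47 and 23.6 to 52.8 FPKM, with only 1 of 5 genes at a sham mean of 1 or more. Those of Schwann cells were at 1.2 to 1.54 and 0.98 to 2.71, with 1 of 4 genes at that level. None of these markers was at 0 in all 12 libraries, and their part in the results was not tested. Of 10 genes that mark spinal cord, 9 were at 1 FPKM or more in sham.

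Without day 7 library 3 and sham library 3, many more genes passed, among hosts and all genes alike. On day 3, 31 host genes (3.5%) rose and 45 (5.08%) fell, where 4.03% of all genes rose and 3.07% fell. On day 7, 7 (0.79%) rose and 3 (0.339%) fell, against 0.733% and 0.38%. On day 14, 21 (2.37%) rose and 28 (3.16%) fell, against 2.42% and 2.3%. The sham group then holds 2 libraries of the near-identical kind. The 8 host genes past the threshold on all 3 days, named after their values were seen, were Sprr1a, S100a11, Mt2, Gfap, the acute-phase protease inhibitor Serpina3n, the lysosomal protease Ctsb, the interferon-induced Ifitm3 and Ank3, the scaffold of the axon initial segment. Ifitm3 and Ank3 fell on each day in this fit, with Ank3 at -0.39, -0.21 and -0.17, while Serpina3n rose by 0.34 to 0.39 (log2). Sprr1a, S100a11 and Ctsb rose on each day as well. The direction changed between days in Gfap, at 0.0699, 0.161 and -0.189 on days 3, 7 and 14, and in Mt2, at 0.325, -0.155 and 0.272.

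Mt2 was the 1 host gene whose RNA passed the threshold between injured days. It was at 203, 203.9 and 195.1 FPKM in sham, at 255, 253.5 and 256.2 on day 3, at 180.9, 184.4 and 170.8 on day 7, and at 248.6, 243.8 and 245.1 on day 14. The day 7 libraries lay below all others and those of days 3 and 14 above all sham libraries. Day 7 was lower than day 3 by a log2 of -0.51 ± 0.05 (SE; limma, adjusted p = 0.0217) and day 14 higher than day 7 by 0.46 ± 0.05 (adjusted p = 0.0307). Of 21 alternatives, 13 ended the former call and 15 the latter, the replicate block among them (limma, adjusted p = 0.072 and 0.166). The fold enrichment of its site was 3.55 on day 7, the lowest of the 3 days. The median fold over all sites was 3.13 on day 7, 3.31 on day 3 and 3.52 on day 14. These folds were among the values that chose the sites, with 1 list per group. A link between fold and RNA was not tested.

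**Figure D4:**
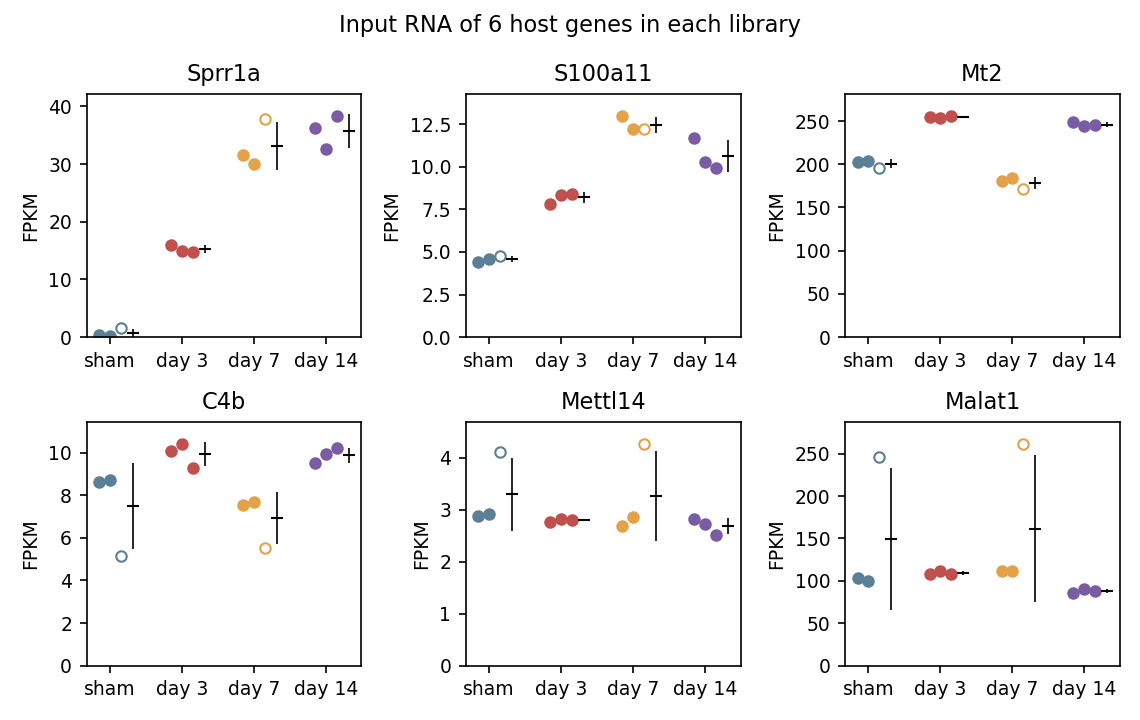
FPKM of 6 host genes (y axes, each from 0) in the 3 input libraries of sham and of days 3, 7 and 14, with the mean ± SD in black and library 3 of sham and day 7 as open circles. Sprr1a and S100a11 are higher in every injured library than in sham, Mt2 is lowest on day 7, and the spread of C4b, Mettl14 and Malat1 in sham and on day 7 comes with library 3.

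Some sites lay close to the thresholds. Among day 3 peaks that met every other part of the rule, 69 had a fold from 2 to 2.2 and 29 from 1.8 to 2. Ank3, Ppp1r12b and Nrip1 were just inside with a fold of 2, and Actr10 (1.99) and Klhl29 (1.97) just outside. Iws1 (log10 p of -5) and Ckap2 (-5.01) were just inside the limit on p, and Dleu7 (-4.98) and Zfp474 (-4.89) just outside.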

How the data were processed

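Spinal cord poly(A) RNA was measured in 12 input and 12 m6A pull-down libraries, with groups taken from the sample titles. Libraries were made with dUTP strand marking, per the labels' protocols. The authors deposited FPKM per gene for each input library and 1 peak list per group. The lists have no column for single libraries, and no source says if replicates were pooled. A peak has, per the file headers, exonic blocks, a score (lg.p and lg.fdr, base 10 logarithms) and a fold enrichment, a ratio over input. Per the submitters' processing notes, HISAT2, StringTie, ChIPseeker and edgeR were used, with no versions. Neither peak caller nor build is given in the sources used here. Of 26122 gene symbols, 99.93% overlapped the RefSeq gene of that name in GRCm38.p6, whose promoter table gave the sequences.

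Peak starts counted from 0 (7318 day 3 peaks began 1 base before their gene's start as listed, 4 at it), so 1 was added. Strand was that of the gene naming the peak; 41 strict day 3 peaks had none, and no site touched any of the 66 sham rows without one. Overlaps were of exonic blocks. Genes with a mean of at least 0.5 FPKM were fitted with limma 3.58.1 (R 4.3.3, trend) on log2(FPKM + 0.5) as 4 groups, with Benjamini-Hochberg adjustment over all genes and a threshold of 0.05. In 8 of the pairs of libraries within a group, values were near-identical, and without counts it could not be tested whether these are separate samples. Deviations of same-numbered libraries of sham and day 7 correlated at 0.459, 0.534 and 0.793, but day 7 library 1 with sham library 2 and day 7 library 2 with sham library 1 did so too (0.492 and 0.619). Other group pairs gave -0.105 to 0.212, and the labels do not state a pairing.

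Among genes without a predicted name (Gm and digits, Rik or clone names), named were the 10 sites with the highest smallest fold, the 10 with the highest and 5 with the lowest sham level (reaching 1 FPKM after injury). Also named were hosts past the RNA threshold, members of fixed gene lists, and the peaks nearest to the thresholds; 2 of these genes are not reported here. Members and lists were chosen with earlier results of these data known. The steps were tested on simulated data. Alternatives were other overlap rules, pseudocounts, filters, scalings, a block and left-out libraries. Averaging near-identical libraries was chosen after seeing the data.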

Additional observations from a re-analysis of the deposited data

Results flagged for a closer look

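Mt2 RNA passed the threshold between injured days in limma fits over all genes, and lost the calls under 13 and 15 of 21 alternatives, among them the replicate block (adjusted p = 0.072 and 0.166) and no filter (0.125 and 0.193). It was lower on day 7 than on day 3 by a log2 of -0.51 (adjusted p = 0.0217) and higher on day 14 than on day 7 by 0.46 (adjusted p = 0.0307), in 3 of 3 libraries each. The contrasts do not involve sham. The lower level on day 7 was seen in all 3 day 7 libraries, including libraries 1 and 2, which did not stand apart (180.9 and 184.4 FPKM, against 253.5 to 256.2 on day 3).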

How the results depend on the processing

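The count of 1000 sites stayed within 1.5 times under whole spans, a 50% overlap, either strand, merged regions and counting day 7 or day 14 peaks (739 to 1213). It was 395 with a fold of at least 3, 3708 with every row of the injured lists and 1612 when only strict sham peaks counted as present. With day 3, 7 or 14 as the group without a peak it was 43, 337 and 34. Leaving out each library in turn gave 3 to 40 genes past the RNA threshold on day 3 (1 to 6 hosts), 4 to 26 on day 7 (2 hosts), 5 to 21 on day 14 (2 to 3 hosts) and 5 to 38 for the mean (2 to 3 hosts). The host median stayed between -0.021 and -0.000 on day 3, -0.018 and 0.018 on day 7, -0.009 and 0.018 on day 14 and -0.009 and 0.009 for the mean. The median sham level of the hosts was 4.63 to 4.7 FPKM without 1 sham library. Without day 3 library 3, S100a11 lost its day 3 call, and Sprr1a kept its calls without any 1 library. Without day 7 library 3 and sham library 3, 1104, 173, 733 and 688 genes passed on days 3, 7, 14 and for the mean, and 76, 10, 49 and 49 hosts, with a host median of 0.018 on day 14.

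A replicate block gave 5, 9 and 10 genes on days 3 and 7 and for the mean, and changed no host call against sham. A filter of 5 FPKM gave 8 genes on day 7 and 4 on day 14. Fits of only the groups compared gave 2, 1 and 5 genes on days 3, 7 and 14, and 0 hosts on days 3 and 7 in limma (25 and 9 hosts, and 772 and 191 of all genes, with an unadjusted p below 0.05). With near-identical libraries averaged (2 residual degrees of freedom), 1, 0, 0 and 0 genes and 0 hosts passed in limma (51, 72, 47 and 91 genes, and 4, 4, 5 and 5 hosts, with an unadjusted p below 0.05). Median-of-ratios scaling moved the host median to -0.041, -0.022, -0.033 and -0.031, and rescaling to a common sum moved it to -0.059 on day 3, -0.033 on day 14 and -0.031 for the mean. Mt2 lost its calls between days with no filter, a common sum, the block, averaging and most left-out libraries, and kept its direction in all. The cause was not tested. The share of whole sites holding GGAC or GGACT, and its alternative, were not run, since no genome was at hand.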
